A study of Mus musculus with 2 samples.

Results

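The cells described here are MC38 tumour spheroid cells in which at least 1 transcript of Snai1 and at least 1 transcript of Ly6a was counted. They were chosen by those counts: of the barcodes with 10000 to 30000 unique molecular identifiers (UMIs, each standing for 1 captured transcript), at least 500 genes and at most 10% mitochondrial UMIs, those with 1 or more UMI of each gene were called double-positive. They numbered 911 of 4086 kept cells. The other kept cells were divided into cells with Snai1 only (1283), cells with Ly6a only (629) and double-negative cells with 0 UMIs of both genes (1263). The levels of Snai1 and Ly6a set these classes and are therefore given as a description, and every other gene was compared between classes within a library.

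The cells came from 2 libraries of MC38, a mouse colon carcinoma line grown as tumours in the C57BL/6 albino strain. Pieces of these tumours were kept in collagen in a microfluidic chip for 6 days with the antibody aPD-1 (clone RMP1-14) or with the control antibody IgG (clone 2A3), each at 10 µg/mL, and tumour cells were sorted before droplet sequencing. RMP1-14 binds PD-1, an inhibitory receptor of T cells. Each treatment had 1 library, so no difference below has a replicate, no test was possible, and treatment cannot be told apart from sorting or loading.

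Snai1 encodes Snail, a zinc finger repressor that binds E-box sequences and turns down epithelial genes such as E-cadherin in the epithelial-mesenchymal transition (EMT). Ly6a encodes Sca-1, a small surface protein held by a lipid anchor, which marks several kinds of progenitor cell in the mouse and is inducible by interferons. Interferons signal through STAT proteins: type I interferon acts mainly through the interferon-stimulated response element, and interferon-gamma through the gamma-activated site, in the promoters of their target genes.

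Promoter windows of 3 genes are printed: Snai1 because it chose the cells, and Ifit3 and Isg15 because interferon genes were among those that were higher in double-positive cells of both libraries. Each holds the 250 bases before the start of the gene in RefSeq, on build GRCm38.p6 and 5′ to 3′ on the strand of the gene. They are Snai1 at chr2:167537945-167538194 on the plus strand, Ifit3 at chr19:34583279-34583528 on the plus strand and Isg15 at chr4:156200819-156201068 on the minus strand. Ifit3 and Isg15 were picked after the search, as genes with a match, and Isg15 also lies outside the rule by which genes were named. Capitals mark the letters CAGGTG, a Snail-type E-box, on either strand in Snai1, and the core of the interferon-stimulated response element (GAAA, any 2 bases and GAAA again) on either strand in Ifit3 and Isg15.
Snai1: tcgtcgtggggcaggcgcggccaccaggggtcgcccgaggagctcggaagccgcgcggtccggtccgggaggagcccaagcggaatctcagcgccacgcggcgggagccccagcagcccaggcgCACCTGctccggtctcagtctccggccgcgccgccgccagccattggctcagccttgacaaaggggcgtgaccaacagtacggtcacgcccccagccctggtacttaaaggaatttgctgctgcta
Ifit3: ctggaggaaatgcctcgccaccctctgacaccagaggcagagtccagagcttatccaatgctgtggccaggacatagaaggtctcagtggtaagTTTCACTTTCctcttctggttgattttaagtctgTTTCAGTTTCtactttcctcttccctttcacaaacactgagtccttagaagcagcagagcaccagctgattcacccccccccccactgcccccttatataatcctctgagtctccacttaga
Isg15: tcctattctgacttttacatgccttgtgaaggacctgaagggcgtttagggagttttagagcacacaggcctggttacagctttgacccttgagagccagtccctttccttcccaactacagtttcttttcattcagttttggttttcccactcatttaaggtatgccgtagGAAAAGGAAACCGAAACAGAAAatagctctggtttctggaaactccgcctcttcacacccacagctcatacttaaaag
The match in Snai1 began 126 bases before its start. Those in Ifit3 began 156 and 122 bases before the start, and those in Isg15, which overlap each other, 78, 72 and 66 bases before it.

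The kept cells held 46692962 UMIs in the aPD-1 library and 28452329 in the IgG library, with medians of 16931 and 19513 UMIs per cell. Of the kept barcodes, 5 occurred in both libraries, and 1 of these was double-positive in both. The sorted cells did not carry epithelial markers: of Epcam, Krt8, Krt18, Krt19, Cdh1 and Cldn7, the most abundant reached 0.301 CPM (UMIs scaled to the same total in every class) in any class of either library, and all 6 were at 0 UMIs in the double-positive cells of the aPD-1 library. Vim, the intermediate filament of mesenchymal cells, stood at 1982 CPM in double-positive and 1577 CPM in double-negative cells of the aPD-1 library, and at 2082 and 1882 CPM in those of the IgG library. The name tumour cell thus rests on the sort.

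Double-positive cells made up 19.1% of the kept aPD-1 cells (502 of 2631, 95% Clopper-Pearson interval 17.6 to 20.6%) and 28.1% of the kept IgG cells (409 of 1455, interval 25.8 to 30.5%). These intervals, like all below, cover counting error only. Snai1 was detected in 49.0% of aPD-1 and 62.1% of IgG cells, and Ly6a in 36.0% of aPD-1 and 40.8% of IgG cells. If the 2 genes were detected independently, the product of these shares would give 17.6% double-positive cells in aPD-1 and 25.4% in IgG. The observed share was 1.08 times that product in the aPD-1 library and 1.11 times in the IgG library, so most of the overlap was of the size that the single shares give.

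Detection of a low transcript depends on depth, and the IgG cells were deeper. In bins of 2500 UMIs the double-positive share ran from 13.7% at 10000 to 12500 UMIs to 25.9% at 25000 to 27500 UMIs in the aPD-1 library, with 16.9% in the last bin. In the IgG library it ran from 15.1% in the first bin to 40.2% in the last. In each library the share lay above the product of the single shares in 7 of 8 bins. The odds ratio between the detection of both genes, pooled over the bins by the Mantel-Haenszel method, was 1.28 in the aPD-1 library and 1.51 in the IgG library. After every cell was thinned to 10000 UMIs, 9.88% of aPD-1 cells (interval 8.77 to 11.1%) and 15.4% of IgG cells (interval 13.6 to 17.4%) remained double-positive, against products of 9.39% and 13.3%. The lower share in the aPD-1 library was thus present at equal depth as well, while the excess over the product in that library lay within the counting interval.

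**Figure D1:**
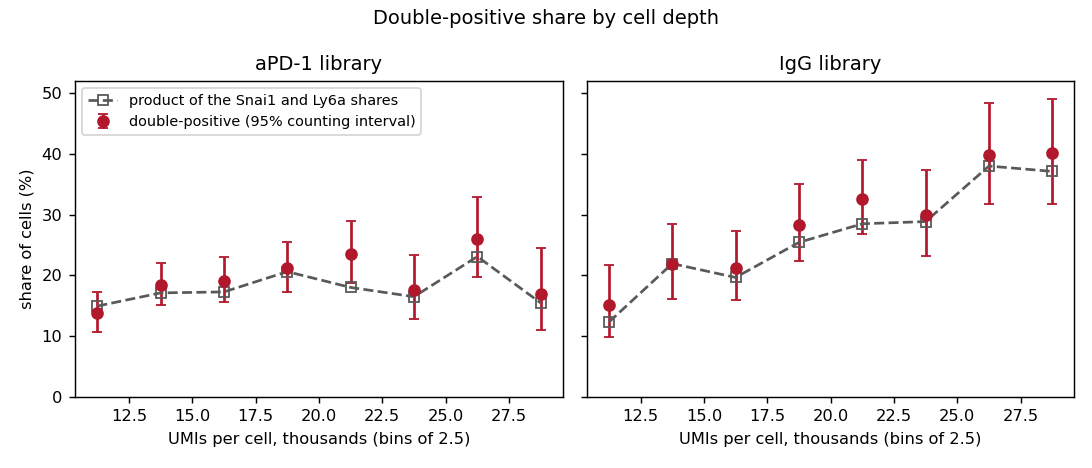
Share of kept cells that were double-positive (red points, with 95% Clopper-Pearson intervals) in bins of 2500 UMIs per cell, in the aPD-1 library (left) and the IgG library (right). Grey squares give the product of the Snai1 and Ly6a shares in the same bin; the points lie above them in 7 of 8 bins in each library.

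Most members carried few transcripts of the genes that chose them. Snai1 (chr2:167538195-167542814, plus strand, GRCm38) was at 1 UMI in 54.2% of the aPD-1 members and 35.5% of the IgG members, and its highest count was 13 in aPD-1 and 16 in IgG. Ly6a (chr15:74994877-74998031, minus strand) was at 1 UMI in 46.0% of the aPD-1 members and 43.3% of the IgG members, with highest counts of 32 and 74. Members that only just met the rule, with 1 UMI of each gene, were 131 of 502 in aPD-1 and 62 of 409 in IgG, and those with 2 or more of each were 130 and 149. In summed counts, Snai1 stood at 100.4 CPM in double-positive and 100.04 CPM in Snai1-only cells of the aPD-1 library, and at 125 and 126 CPM in those of the IgG library. Ly6a stood at 181 CPM in double-positive and 184 CPM in Ly6a-only cells of the aPD-1 library, and at 186 and 245 CPM in those of the IgG library.

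RNA from broken cells can add UMIs to any droplet. In the aPD-1 library the barcodes ranked below the first 5000 and down to 50000 by depth, with a mean of 57.8 UMIs, had a UMI of Snai1 in 0.218% and of Ly6a in 0.802%. Ly6a was detected in 36.0% of kept cells. How much free RNA a droplet with a cell held is not known, so its part in this detection was not tested. Per UMI, these barcodes held 166 CPM of Ly6a and 37.7 CPM of Snai1, and the next ones down to rank 100000 held 54.8 and 42.7 CPM, against 65.7 and 49.99 CPM over all kept cells of the library. The IgG matrix holds no such barcodes, and no class of cells known to lack both genes was large enough in either library to serve as background.

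Interferon and extracellular matrix genes were among those that were higher in double-positive than in double-negative cells of both libraries, and Hmga1, Hmga2 and Sox2 among those that were lower. UMIs were summed over the cells of a class and scaled to CPM. Genes with a mean over both classes of at least 20 CPM in each library were compared, and those at least 25% higher or 20% lower, with an exact 95% interval of the ratio that left out 1, were counted. Of 4624 genes compared in the aPD-1 library, 581 (12.6%) were higher and 135 (2.92%) lower. Of the same genes in the IgG library, 327 (7.07%) were higher and 235 (5.08%) lower. In both libraries 242 genes (5.23%) were higher, 31 of them in an interferon list, and 74 (1.6%) lower, none of them in such a list. The 4624 genes held 22 of the type I list and 24 of the interferon-gamma list. By that share, 74 genes would hold few or none. The 242 were 41.7% of the genes higher in aPD-1 and 74.0% of those higher in IgG, and 3 genes were counted in opposite directions. Across the 4624 genes the log2 ratios of the 2 libraries correlated with Pearson's r = 0.73 and Spearman's rho = 0.64, a description across genes, which are not independent replicates. The median log2 ratio over all genes was 0.05 in the aPD-1 library and -0.00080 in the IgG library.

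Double-positive cells were deeper than double-negative cells, with medians of 17738 against 16669 UMIs in the aPD-1 library and 21118 against 17709 UMIs in the IgG library. Ribosomal protein genes took 37.1% of the UMIs of double-positive and 40.0% of those of double-negative cells in the aPD-1 library, and 34.1% and 35.3% in the IgG library. When double-negative cells were reweighted to the depths of the double-positive cells, 298 genes were higher, 233 of the 242 among them, and 92 were lower, 71 of the 74 among them. Fewer of the same genes were counted when every cell was thinned to 10000 UMIs, with 156 of the 242 and 46 of the 74. At 10000 to 20000 UMIs, a range chosen after seeing the data, it was 161 and 42, and among cells below the median of their library in G2/M transcripts 153 and 23. With ribosomal and mitochondrial genes left out of the total, 241 genes were higher and 180 lower in both libraries, so the balance of the 2 directions depends on that scaling.

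**Figure D2:**
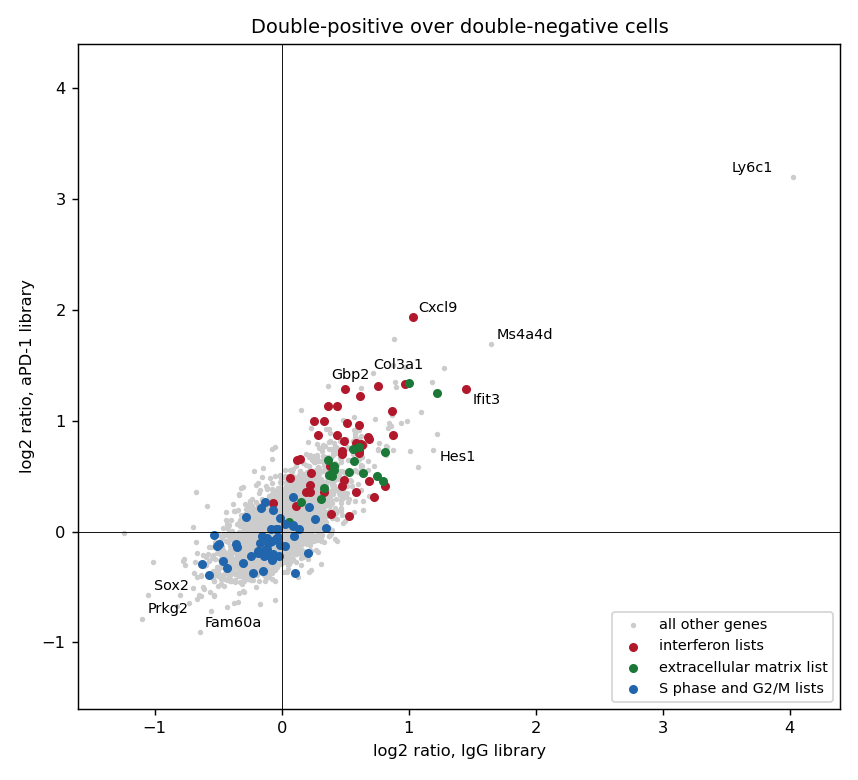
Log2 ratio of double-positive over double-negative cells for each of 4624 genes, in the aPD-1 library (vertical) against the IgG library (horizontal). Members of the interferon lists (red) and the extracellular matrix list (green) lie mostly above 0 on both axes, those of the S phase and G2/M lists (blue) lie around 0, and Ly6c1 lies farthest out, at 3.20 in aPD-1 and 4.03 in IgG.

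Type I interferon genes were higher in double-positive cells of both libraries. Of the 22 listed genes that reached the level tested, 20 were higher in the aPD-1 library, 18 in the IgG library and 16 in both, and 0 were lower in either. Their median log2 ratio was 0.62 in aPD-1 and 0.60 in IgG, against 0.05 and -0.00080 over all genes. Counted as higher were 12.6% of all genes in aPD-1, 7.07% in IgG and 5.23% in both. Ifit3, whose protein binds viral RNA together with its relatives, stood at 105 CPM in double-positive and 43.2 CPM in double-negative cells of the aPD-1 library, and at 94.1 and 34.5 CPM in those of the IgG library. Its ratio was 2.43 (interval 2.21 to 2.69) in aPD-1 and 2.73 (interval 2.35 to 3.17) in IgG. The near-identical Ifit3b, with which it can share reads, stood at 32.5 and 13.1 CPM in the aPD-1 library and at 27.6 and 10.99 CPM in the IgG library. Irf7, a transcription factor that amplifies the type I response, had a log2 ratio of 0.87 in both libraries. Ifi27l2a, an interferon-induced gene, was at 342 CPM in double-positive and 136 CPM in double-negative cells of the aPD-1 library, and at 564 and 288 CPM in those of the IgG library. Isg15, a ubiquitin-like modifier whose promoter is printed above, was at 668 and 408 CPM in the aPD-1 library and 673 and 442 CPM in the IgG library. Other interferon-induced genes that led the ranking were Ifitm1, a membrane protein that restricts viral entry, with log2 ratios of 1.48 in aPD-1 and 1.28 in IgG, and the HIN-200 family members Ifi204 (1.08 and 1.09) and Ifi205 (1.30 and 0.90), which can share reads.

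Interferon-gamma genes were higher in double-positive cells of both libraries too. Of 24 tested, 20 were higher in aPD-1, 16 in IgG and 15 in both, and none was lower in either. Beside this, 12.6% of all genes were higher in aPD-1, 7.07% in IgG and 5.23% in both. The median log2 ratio of the list was 0.85 in aPD-1 and 0.44 in IgG. Cxcl9, a chemokine that draws T cells through CXCR3, was at 111 CPM in double-positive and 29.0 CPM in double-negative cells of the aPD-1 library, and at 143 and 70.0 CPM in those of the IgG library. Its ratio was 3.83 (interval 3.42 to 4.28) in aPD-1 and 2.05 (interval 1.84 to 2.28) in IgG. Cxcl9 was unevenly spread: 41.2% of aPD-1 members and 47.2% of IgG members had a UMI of it, and the 10 members richest in it held 24.9% of its UMIs in aPD-1 and 29.9% in IgG. Gbp2, a guanylate-binding protein, was found in 85.9% of aPD-1 and 87.3% of IgG members, at 309 against 125 CPM in the aPD-1 library and 254 against 150 CPM in the IgG library. Serpina3g, a protease inhibitor, had log2 ratios of 1.09 in aPD-1 and 0.87 in IgG. Cd274, which encodes PD-L1, the ligand of PD-1, stood at 42.5 CPM in double-positive and 23.3 CPM in double-negative cells of the aPD-1 library, and at 31.8 and 23.5 CPM in those of the IgG library. Ifngr1, the ligand-binding chain of the interferon-gamma receptor, was counted higher in the aPD-1 library alone, with log2 ratios of 0.48 there and 0.06 in IgG. Whether the 2 libraries differ in these ratios was not tested.

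Genes of antigen presentation were higher as well, with a larger median in the aPD-1 library. Of 18 genes of MHC class I and its peptide supply, 16 were higher in the aPD-1 library and 6 in the IgG library, all 6 of them in both, with median log2 ratios of 0.54 and 0.23. The share of all genes that were higher also differed, at 12.6% in aPD-1 and 7.07% in IgG, with 5.23% in both. Psmb8 and Psmb9, subunits of the immunoproteasome, had log2 ratios of 0.74 and 0.76 in aPD-1 and of 0.39 and 0.42 in IgG, and Tap2, a chain of the peptide transporter, 0.82 and 0.38. B2m, the light chain of MHC class I, was at 2577 CPM in double-positive and 1862 CPM in double-negative cells of the aPD-1 library, and at 2969 and 2636 CPM in those of the IgG library. The MHC class II chain H2-Aa was also higher in double-positive cells, at 39.4 and 19.7 CPM in the aPD-1 library and at 38.8 and 19.6 CPM in the IgG library. It was found in 22.1% of aPD-1 and 22.2% of IgG members, and the 10 richest members held 34.7% and 42.9% of its UMIs. Macrophage and monocyte markers, which could bring class II transcripts, summed to 4.24 CPM in double-positive and 6.40 CPM in double-negative cells of the aPD-1 library, and to 8.27 and 10.2 CPM in those of the IgG library, with none of 9 markers at 10 CPM in any of these classes. Of the members, 0 of 502 in aPD-1 and 2 of 409 in IgG carried 3 or more of these markers. In double-negative cells it was 1 of 897 and 3 of 366. Whether such cells held the H2-Aa UMIs was not tested.

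Promoter windows were searched for 3 motifs. Of 242 genes higher in both libraries 184 had a window, and 30 of these (16.3%) held the core of the interferon-stimulated response element on either strand in the 250 bases before the start, against 3.71% of the 3613 genes tested that had one, 5.08% of 59 genes lower in both libraries and 3.46% of all 27025 genes. TTCNNNGAA, the gamma-activated site core, was found before 9.78% of the genes higher in both, 6.42% of those tested and 1.69% of those lower in both. Over all genes with a window it was 8.13%. CAGGTG, the E-box that Snail can bind, was found before 20.7% of the genes higher in both, 14.8% of those tested and 20.3% of those lower in both. Its share over all genes with a window was 19.4%, near that of both groups of counted genes. These are counts of letters in a window and not of bound sites. Ifit3 and Isg15 carry the first motif as printed above, whereas the window of Cxcl9 held none of the 3.

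Extracellular matrix genes were higher in double-positive cells of both libraries. Of 19 tested, the same 16 were higher in aPD-1 and in IgG, none was lower, and the median log2 ratio was 0.53 in each. Over all genes compared, 12.6% were higher in aPD-1, 7.07% in IgG and 5.23% in both. Col3a1, the chain of type III collagen, stood at 306 CPM in double-positive and 121 CPM in double-negative cells of the aPD-1 library, and at 482 and 240 CPM in those of the IgG library. Its ratio was 2.53 (interval 2.38 to 2.68) in aPD-1 and 2.01 (interval 1.89 to 2.13) in IgG. Col1a1, a chain of type I collagen, was at 133 and 55.9 CPM in the aPD-1 library and at 214 and 91.5 CPM in the IgG library. Its partner chain Col1a2 stayed at 2.91 CPM or below in the double-positive cells of both libraries. Fbn1, the microfibril protein fibrillin-1, had log2 ratios of 0.72 in aPD-1 and 0.82 in IgG, and Fn1, fibronectin, 0.52 and 0.64. Sparc, a collagen-binding matrix protein, had ratios of 0.64 and 0.57 on the same scale.

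All 8 tested members of a list of fibroblast-like genes were higher in both libraries, with median log2 ratios of 0.998 in aPD-1 and 0.89 in IgG. Among all genes compared, 5.23% were higher in both. The list includes Col1a1, which is also in the matrix list. It also includes Ly6c1, which can share reads with Ly6a, a gene that chose the cells. Of the 8, Gsn, the actin-severing protein gelsolin, was at 53.1 CPM in double-positive and 18.9 CPM in double-negative cells of the aPD-1 library, and at 102 and 51.9 CPM in those of the IgG library. The 10% of kept cells, over both libraries, with the highest summed CPM of Gsn, Lbp, Dpt and Dcn were marked as fibroblast-like. They made up 11.6% of double-positive and 4.12% of double-negative cells of the aPD-1 library, and 18.3% and 10.9% of those of the IgG library. Without these cells the fibroblast-like list had medians of 0.85 in aPD-1 and 0.90 in IgG and the matrix list 0.49 and 0.47, so the differences in level were also present among the other cells. Of the fibroblast markers fixed for this work, 5 of 8 reached 10 CPM in every class of both libraries.

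Of 13 mesenchymal genes, 10 were higher in double-positive cells of the aPD-1 library and 6 in those of the IgG library. All 6 were higher in both libraries, none was lower in either, and the medians were 0.38 in aPD-1 and 0.25 in IgG. S100a4, a calcium-binding protein of motile cells, was at 643 CPM in double-positive and 342 CPM in double-negative cells of the aPD-1 library, and at 996 and 662 CPM in those of the IgG library. Of 7 transcription factors of EMT tested besides Snai1, none was counted in either direction in either library, and their medians were 0.12 and 0.0014. With 12.6% of all genes higher in aPD-1 and 7.07% in IgG, a count of 0 of 7 lies near the share of all genes. Zeb1 was at 50.1 and 42.0 CPM in double-positive and double-negative cells of the aPD-1 library and at 52.4 and 53.9 CPM in those of the IgG library, and Zeb2 at 147 and 131 CPM and at 151 and 151 CPM. Twist1, at about 20 CPM, had log2 ratios of 0.07 and 0.32, and Snai2, the closest relative of Snai1, stayed at 1.51 CPM or below in double-positive cells. Of targets of TGF-beta, an inducer of Snai1 in many cells, 7 of 11 were higher in aPD-1, 6 in IgG and 4 in both. They include Col1a1, which is also in the matrix list, and Junb, an AP-1 subunit. Junb had log2 ratios of 0.55 in aPD-1 and 0.46 in IgG. Set against Snai1-only cells, the TGF-beta list had medians of 0.24 in aPD-1 and 0.07 in IgG. Set against Ly6a-only cells, it had 0.09 and -0.07.

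Within the Ly6 family, Ly6c1 had the largest ratio of the 4624 genes in each library. It stood at 39.6 CPM in double-positive and 4.31 CPM in double-negative cells of the aPD-1 library and at 56.6 and 3.46 CPM in those of the IgG library. Its ratio was 9.18 (interval 7.07 to 12.1) in aPD-1 and 16.3 (interval 10.8 to 26.0) in IgG. Ly6c1 (chr15:75044018-75048830, minus strand) lies in the same gene cluster as Ly6a, and reads of such similar genes can be assigned to either, so its level is uncertain. Ly6e, another family member with an interferon-inducible transcript, was at 627 and 394 CPM in the aPD-1 library and at 627 and 404 CPM in the IgG library. Plaur, the urokinase receptor, had log2 ratios of -0.15 and 0.04. The other family members did not reach the level tested, and Ly6c2 was at 0.217 CPM or below in double-positive cells.

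Further genes at the head of the ranking belonged to no single group. Ms4a4d, a membrane protein of the MS4A family, was at 37.5 CPM in double-positive and 11.6 CPM in double-negative cells of the aPD-1 library, and at 48.1 and 15.4 CPM in those of the IgG library. Igfbp6, which binds insulin-like growth factor 2, was at 163 and 64.2 CPM in the aPD-1 library and at 199 and 87.8 CPM in the IgG library. Casp1, the protease of the inflammasome, had log2 ratios of 0.98 in aPD-1 and 0.94 in IgG. Ecscr, a surface protein known from endothelial cells, had 1.35 and 0.89; 7 endothelial markers summed to 15.1 CPM in double-positive and 13.1 CPM in double-negative cells of the aPD-1 library, and to 59.8 and 13.1 CPM in those of the IgG library. Without cells that carried 3 or more markers of an immune or endothelial type, Ecscr was at 0.74 in IgG. Phlda3, a p53 target that restrains AKT, had 0.86 in aPD-1 and 0.87 in IgG.

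**Figure D3:**
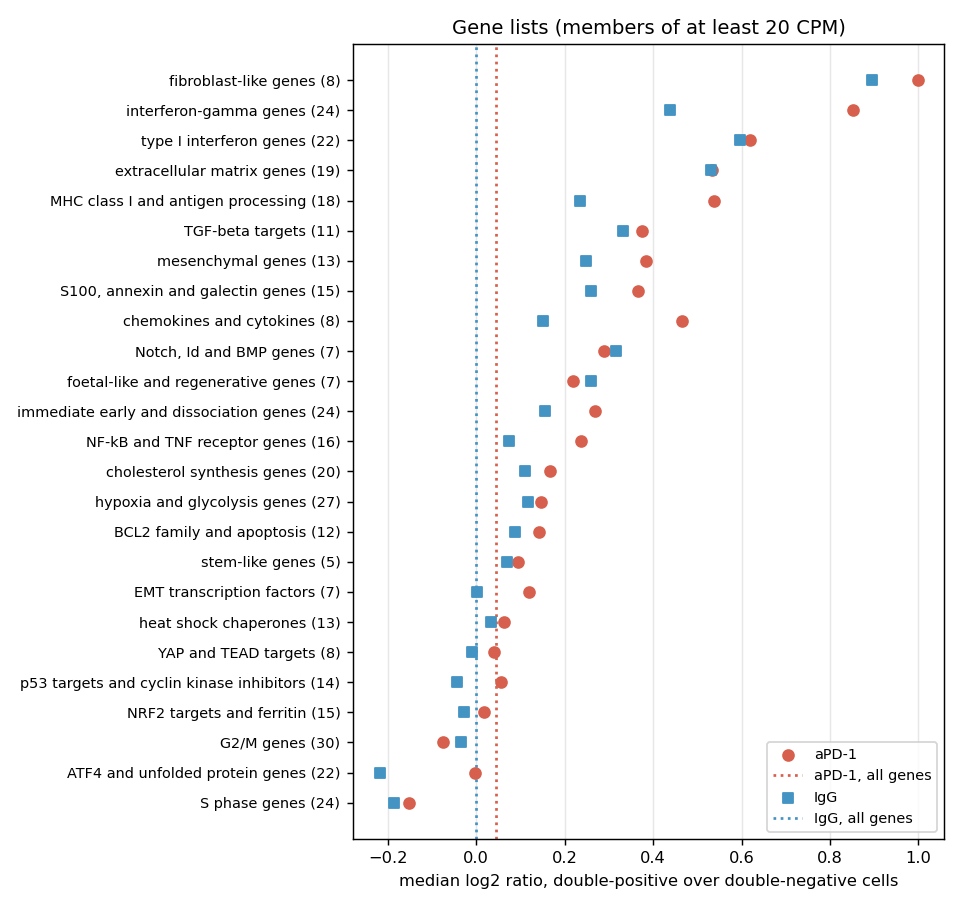
Median log2 ratio of double-positive over double-negative cells for each gene list, in the aPD-1 library (circles) and the IgG library (squares), with the number of genes tested in brackets; dotted lines give the median over all genes. The fibroblast-like, interferon and matrix lists lie at 0.44 to 0.998 and the S phase list below 0 in both libraries, though among cells with few G2/M transcripts its aPD-1 median was 0.07. Lists with fewer than 5 genes tested are not drawn.

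The 15 genes named as lower in double-positive cells had log2 ratios between -0.91 and -0.50 in aPD-1 and between -1.10 and -0.53 in IgG. Hmga1 and Hmga2, architectural proteins of chromatin, were both among them: Hmga1 was at 73.5 CPM in double-positive and 117 CPM in double-negative cells of the aPD-1 library, and at 43.7 and 77.4 CPM in those of the IgG library. Hmga2 was at 50.7 and 77.6 CPM in the aPD-1 library and at 22.4 and 35.5 CPM in the IgG library. Sox2, a transcription factor of stem cells, was at 29.6 and 44.0 CPM in the aPD-1 library and at 17.7 and 36.6 CPM in the IgG library. Prkg2, a kinase driven by cyclic GMP, had the lowest IgG ratio of the genes lower in both libraries, 0.466 (interval 0.365 to 0.594), with 0.579 (interval 0.4999 to 0.669) in aPD-1. Fam60a, a subunit of the SIN3 histone deacetylase complex, had the lowest aPD-1 ratio, 0.532 (interval 0.452 to 0.624), with 0.639 (interval 0.526 to 0.776) in IgG.

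Odc1 and Sms, both enzymes of polyamine synthesis, were also lower. Odc1, the rate-limiting ornithine decarboxylase, was at 118 CPM in double-positive and 186 CPM in double-negative cells of the aPD-1 library, and at 84.6 and 140.2 CPM in those of the IgG library, and Sms, spermine synthase, had log2 ratios of -0.54 and -0.56. Mt1, the metal-binding metallothionein, was at 1068 and 1761 CPM in the aPD-1 library and at 1271 and 1864 CPM in the IgG library. Mybl2, a cell cycle transcription factor, had log2 ratios of -0.58 and -0.63, Tfrc, the transferrin receptor, -0.58 and -0.53, and Hilpda, a lipid droplet protein induced by hypoxia, -0.57 and -0.54. Pabpc4, a poly(A)-binding protein, had -0.52 and -0.61, the kinase Pim3 -0.50 and -0.62, Snhg9, a host gene of small nucleolar RNA, -0.57 and -0.65, and Zfos1 -0.58 and -0.80. Of all genes compared, 2.92% were lower in aPD-1, 5.08% in IgG and 1.6% in both. Of 24 S phase genes, 4 were lower in aPD-1, 8 in IgG and 2 in both, with medians of -0.15 and -0.19. The 2 were E2f1, a transcription factor of S phase entry, and Hells, a chromatin remodeller. Among cells below the median of their library in G2/M transcripts, the S phase median was 0.07 in aPD-1 and -0.01 in IgG, over 11 genes, so its direction did not hold in aPD-1. Of 30 G2/M genes 1 was lower in each library, near the shares of all genes. In IgG 1 was higher, where 7.07% of all genes were.

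The 15 genes named as higher and the 15 named as lower kept their sign in both libraries under every alternative that was run. They were picked for large ratios in both libraries, and the alternatives reuse the same cells, so a kept sign was likely from the start. Over all alternatives the size of their ratios varied. The log2 ratios of the higher genes ran from 0.66 to 3.84 in aPD-1 and from 0.57 to 4.55 in IgG, and those of the lower genes from -1.37 to -0.20 in aPD-1 and from -1.54 to -0.14 in IgG.

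The double-positive cells were then set beside the single-positive classes. In the IgG library, macrophage and endothelial markers were lower in the double-positive than in the Ly6a-only cells (8.27 against 329 CPM and 59.8 against 220 CPM in sum). Ifit3 was at 105 CPM in double-positive, 31.3 CPM in Snai1-only, 83.3 CPM in Ly6a-only and 43.2 CPM in double-negative cells of the aPD-1 library. In the same order it was at 94.1, 39.9, 77.9 and 34.5 CPM in the IgG library. In Ifit3 the Snai1-only cells were thus nearer to the double-negative than to the double-positive cells, and in aPD-1 they lay below both. The Ly6a-only cells were nearer to the double-positive cells. Summed over the type I interferon list, the level was 4368 CPM in double-positive, 2702 CPM in Snai1-only, 4211 CPM in Ly6a-only and 2912 CPM in double-negative cells of the aPD-1 library, and 4355, 3270, 4633 and 3031 CPM in the IgG library. Col3a1 was at 306, 222, 220 and 121 CPM in the same order in the aPD-1 library and at 482, 394, 382 and 240 CPM in the IgG library. It was intermediate in both single-positive classes, and highest in the double-positive cells. The matrix list summed to 3948, 3203, 3488 and 2543 CPM in the aPD-1 library and to 4977, 4223, 4755 and 3361 CPM in the IgG library. The double-negative cells are shared by these comparisons, so the values are only set side by side.

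**Figure D4:**
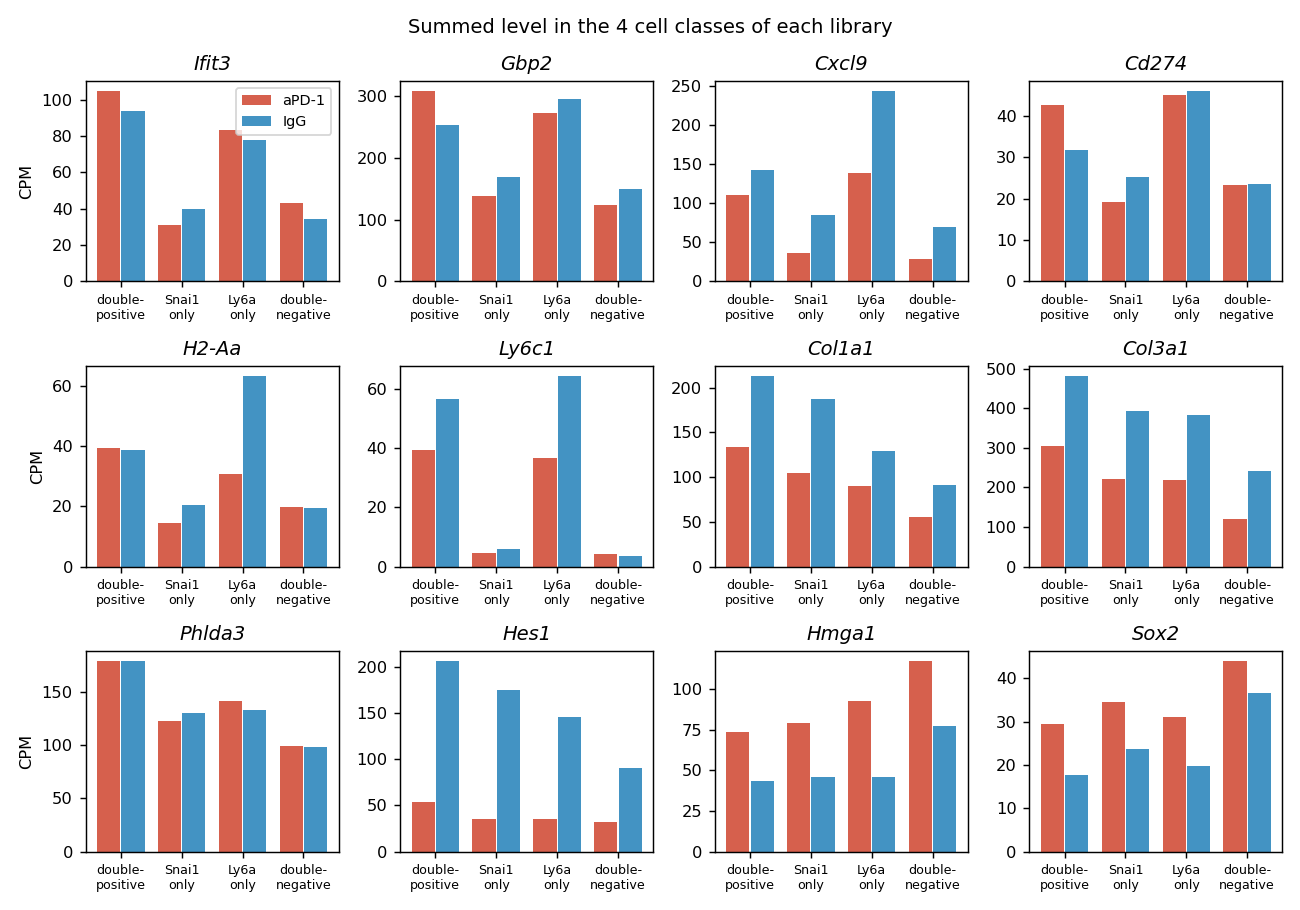
Level of 12 genes in CPM, from UMIs summed over the double-positive, Snai1-only, Ly6a-only and double-negative cells of the aPD-1 library (red) and the IgG library (blue). Ifit3, Gbp2, Cxcl9, Cd274, H2-Aa and Ly6c1 are high in both classes with Ly6a, Col1a1 and Col3a1 are highest in double-positive cells, and Hmga1 and Sox2 are highest in double-negative cells.

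Against the Snai1-only cells, 5.61% of 4667 genes were higher in aPD-1 and 2.38% in IgG, and 0.75% were lower in aPD-1 and 1.69% in IgG. Of the same genes, 85 (1.82%) were higher and 5 (0.107%) lower in double-positive cells of both libraries. Among the 85 were 11 type I interferon genes, 12 interferon-gamma genes and 4 matrix genes. The 5 that were lower were Knstrn, Rbm10, Fam60a, Tmem80 and Nek1, named here because they are so few. Against the Ly6a-only cells, 3.17% of 4637 genes were higher in aPD-1 and 1.92% in IgG, and 1.68% were lower in aPD-1 and 3.04% in IgG. In both, 12 genes (0.259%) were higher and 9 (0.194%) lower. The 12 were Col3a1, Col1a1, Col7a1, Nav1, Phlda3, Car9, Nagk, Bhlhe41, B3gnt9, R3hcc1, Gadd45g and Hes1, 3 collagens among them and no gene of either interferon list. Hes1, a Notch-responsive repressor, was at 53.2 CPM in double-positive and 35.8 CPM in Ly6a-only cells of the aPD-1 library, and at 206 and 145 CPM in those of the IgG library. Cxcl9 was among the 9 that were lower, at 111 and 139 CPM in the aPD-1 library and at 143 and 245 CPM in the IgG library. Beside this, 6 of 409 double-positive and 10 of 185 Ly6a-only cells of the IgG library carried 3 or more markers of an immune or endothelial type. Of the 7 endothelial markers, 2 reached 10 CPM in the double-positive and 7 in the Ly6a-only cells of that library. Without cells that carried 3 or more such markers, 14 genes were higher and 7 lower in double-positive than in Ly6a-only cells of both libraries. Genes outside the naming rule were listed here after their values had been seen.

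Cells of each class overlapped widely. The type I interferon sum per cell had a median of 3419 CPM and an interquartile range from 2200 to 5263 CPM in double-positive cells of the aPD-1 library, against a median of 2202 CPM and 1365 to 3431 CPM in its double-negative cells. In the IgG library the median was 3557 CPM with an interquartile range from 2285 to 5606 CPM in double-positive cells, and 2536 CPM with 1597 to 3721 CPM in double-negative cells. Of the double-positive cells, 74.7% in aPD-1 and 68.9% in IgG lay above the median of the double-negative cells of their library, and for the matrix list these shares were 77.9% and 78.5%.

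**Figure D5:**
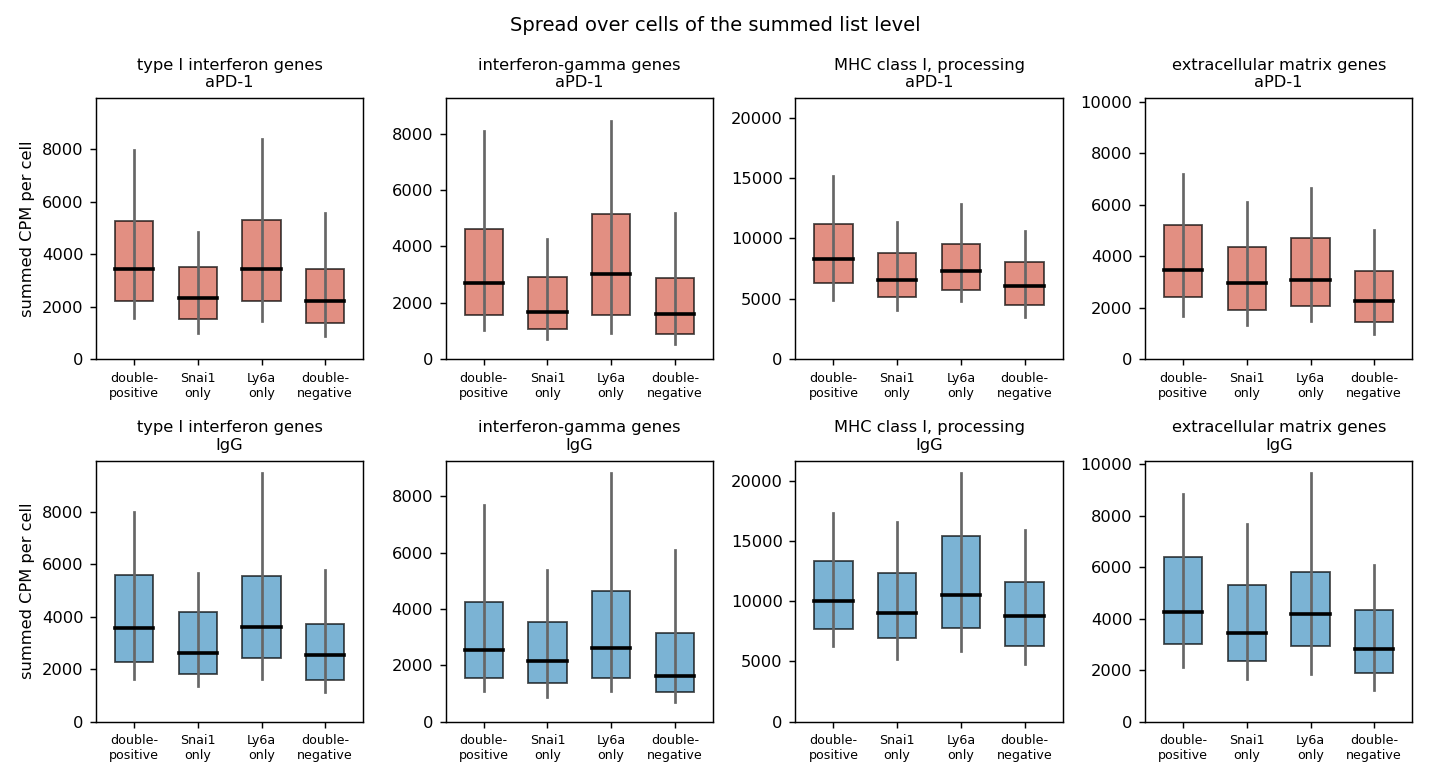
Summed CPM per cell of 4 gene lists in the double-positive, Snai1-only, Ly6a-only and double-negative cells of the aPD-1 library (top) and the IgG library (bottom). Boxes span the interquartile range of the cells, the black line is the median and whiskers run from the 10th to the 90th percentile; the boxes of double-positive and double-negative cells overlap in every panel.

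The members were also divided by their UMIs of Ly6a and of Snai1, the counts that chose them, so the following values are a description. In the aPD-1 library the type I interferon list summed to 3597 CPM in members with 1 UMI of Ly6a, 4263 CPM in those with 2 and 5454 CPM in those with 3 or more; in the IgG library it was 4058, 3900 and 4855 CPM. The matrix list summed to 3414, 3681 and 4807 CPM in aPD-1 and to 4471, 4552 and 5680 CPM in IgG over the same steps. The interferon-gamma list was at 3162, 3333 and 4641 CPM in aPD-1, but at 3426, 3338 and 3302 CPM in IgG. The type I and matrix sums were thus highest in the members with 3 or more UMIs of Ly6a in each library, whereas the interferon-gamma sum was so in aPD-1 and not in IgG. By 1, 2 and 3 or more UMIs of Snai1, the type I list was at 4226, 4770 and 4248 CPM in aPD-1 and at 4255, 4341 and 4452 CPM in IgG, and the matrix list at 3799, 3675 and 4671 CPM and at 5005, 4699 and 5141 CPM.

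Just inside the rule, the 131 aPD-1 members with 1 UMI of each gene had a type I interferon sum of 3526 CPM and a matrix sum of 3278 CPM. Just outside it, aPD-1 cells with 1 UMI of Snai1 and none of Ly6a had 2519 and 2950 CPM, and those with 1 UMI of Ly6a and none of Snai1 had 3601 and 2812 CPM. In the IgG library the 62 members with 1 UMI of each had 3491 CPM for the type I list and 4259 CPM for the matrix list, cells with 1 UMI of Snai1 alone had 3191 and 3729 CPM, and cells with 1 UMI of Ly6a alone had 3409 and 4235 CPM. Cells with 0 UMIs of both genes had 2912 and 2543 CPM in aPD-1 and 3031 and 3361 CPM in IgG. These are sums over cells split by the counts that chose the members. Whether the rule marks off a separate kind of cell was not tested.

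Between the treatments, double-positive cells of the aPD-1 library differed from those of the IgG library mostly by lower genes. With a mean of at least 20 CPM, a ratio of at least 1.5-fold and an interval that leaves out 1, 39 of 4900 genes (0.796%) were higher and 133 (2.71%) lower in aPD-1. In double-negative cells 57 of 4817 (1.18%) were higher and 301 (6.25%) lower. The balance depended on the scaling: with ribosomal and mitochondrial genes left out of the total, 100 genes were higher and 107 lower in double-positive cells. The gene with the largest ratio among those higher was Hmga2, at 50.7 CPM in double-positive cells of aPD-1 and 22.4 CPM in those of IgG, a log2 ratio of 1.18. It differed by a similar amount in double-negative cells, at 77.6 CPM in those of aPD-1 and 35.5 CPM in those of IgG. Prkg2, Fam195a, Mybl2, Tnnt2, which encodes cardiac troponin T, Arhgap22, a regulator of Rac, and Mpp6, a scaffold protein, were also higher, with log2 ratios of 0.79 to 1.07 in double-positive and 0.54 to 1.02 in double-negative cells. Batf2, an interferon-induced transcription factor, was at 25.8 CPM in double-positive cells of aPD-1 and 14.4 CPM in those of IgG, and at 10.96 and 9.79 CPM in double-negative cells.

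Hes1 was lower in aPD-1, at 53.2 CPM in its double-positive cells and 206 CPM in those of IgG, and at 32.1 and 90.5 CPM in double-negative cells, with log2 ratios of -1.95 and -1.50. Id1, an inhibitor of differentiation induced by BMP, was at 46.3 and 120 CPM in double-positive cells, and at 37.9 and 93.8 CPM in double-negative cells. Dpt, the matrix protein dermatopontin, was at 14.2 CPM in double-positive cells of aPD-1 and 41.3 CPM in those of IgG. In double-negative cells it was at 5.01 and 18.8 CPM. Ptn, the growth factor pleiotrophin, and Mfge8, a secreted bridge to dying cells, had log2 ratios of -1.41 and -1.25 in double-positive cells and of -2.04 and -1.34 in double-negative cells. Col3a1 was at 306 CPM in double-positive cells of aPD-1 and 482 CPM in those of IgG, and at 121 and 240 CPM in double-negative cells. Of 21 matrix genes tested here 6 were lower and none higher, beside 2.71% and 0.796% of all genes. The matrix median was -0.28, against -0.07 over all genes. In double-negative cells the matrix median was -0.38 over 19 genes, against -0.13 over all genes, so the lower level was not particular to double-positive cells.

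Of the interferon lists, 2 of 26 type I genes were higher and 1 lower in aPD-1 double-positive cells, and 1 of 24 interferon-gamma genes was higher and none lower. Over all genes, 0.796% were higher and 2.71% lower, so the counts of lower genes lie near that share. The medians of the 2 lists were 0.12 and 0.13 in double-positive cells, beside -0.07 over all genes. In double-negative cells they were 0.01 and -0.22, beside -0.13 over all genes. Cd274 was at 42.5 CPM in double-positive cells of aPD-1 and 31.8 CPM in those of IgG, and at 23.3 and 23.5 CPM in double-negative cells, and did not reach 1.5-fold in either.

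The UMIs of 3 of the lowest genes came from a few IgG cells. Ctla2a, a cysteine protease inhibitor, had 0 UMIs in the aPD-1 and 534 in the IgG double-positive cells. The exact interval of its ratio of aPD-1 over IgG had an upper limit of 0.00647, for counting error only. Igfbp7 and Igfbp3, which bind insulin-like growth factors, were at 0.217 and 0.109 CPM in aPD-1 and at 54.6 and 42.0 CPM in IgG double-positive cells. In IgG, 10 of 409 members held 96.6% of the Igfbp7 UMIs, and 10 or fewer members held all of those of Igfbp3 and Ctla2a. Beside this, 4 of the 409 IgG members and 0 of the 502 aPD-1 members carried 3 or more of 7 endothelial markers. Without cells that carried 3 or more markers of an immune or endothelial type, the log2 ratio was -4.07 for Igfbp7, against -7.97 with them, and -2.12 for Igfbp3, against -8.60. Hes1 stayed at -1.95 and Dpt at -1.56 in that setting. No member of either library carried 3 or more markers of neutrophils, pericytes, dendritic cells or lymphocytes (the T, B and NK cell lists); 0 of 502 aPD-1 members allows a share of up to 0.732% and 0 of 409 IgG members one of up to 0.898%, the upper Clopper-Pearson limits.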

How the data were processed

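Single-cell transcripts of 2 libraries were analysed from the deposited matrices. They hold UMI counts per gene and barcode, not normalised; per the file headers, the program that wrote them was Cell Ranger 3.0.2. Cell Ranger, Seurat 2.1.0 and the build mm10 are named per the submitters' processing notes, and no header or label names the annotation used for counting. The IgG matrix held 4351 barcodes and the aPD-1 matrix 737280, of which 523832 had a UMI; both were filtered alike at 10000 to 30000 UMIs, at least 500 genes and at most 10% mitochondrial UMIs. No doublet caller was run, so doublets remain.

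From these counts, UMIs were summed over the cells of each class and library and expressed as CPM. Ratios carry exact conditional binomial 95% intervals, levels exact Poisson and shares exact Clopper-Pearson intervals, all for counting error only: since cells are no replicates, p-values were left out. The rule for counting genes was run on simulated class sums that held counting error only. Since these lacked the spread between cells, that run cannot show how often such spread leads to a counted gene. Python 3.11.15, numpy 2.4.6, scipy 1.17.1 and pandas 2.3.3 were used. Named were the up to 15 higher and 15 lower genes with the largest ratio in the library where it was smaller, up to 3 genes of each of 28 lists, all EMT factors and Ly6 genes, 6 further genes, and up to 8 higher and 8 lower between treatments, leaving out ribosomal, mitochondrial, haemoglobin and unnamed genes. Of 675 listed symbols 8 did not match the matrices. The members, lists and rules were chosen with earlier results of these data known. Alternatives varied the weights, members, depth, cells left out, scaling, level floor and fold. Gene positions are from GENCODE M21 and promoter windows from RefSeq (GRCm38.p6); motifs were searched on both strands.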

Additional observations from a re-analysis of the deposited data

Results flagged for a closer look

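Double-positive barcodes also occurred outside the depth range that was kept. Of barcodes with over 30000 UMIs, 24.8% in the aPD-1 library (76 of 307) and 32.4% in the IgG library (156 of 482) had both transcripts. Of barcodes with 5000 to under 10000 UMIs, 14.1% in the aPD-1 library (59 of 418) and 11.1% in the IgG library (29 of 261) had both. They are listed because the comparisons did not use such barcodes.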

How the results depend on the processing

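No paired analysis was possible because each treatment has 1 library. The 242 genes higher in double-positive cells of both libraries became 115 with a floor of 50 CPM and 65 at 1.5-fold. The 74 lower became 122 with 2 UMIs of each gene asked of members, 128 after thinning to 10000 UMIs, 180 without ribosomal and mitochondrial genes, 35 with a floor of 50 CPM and 5 at 1.5-fold. Between treatments, the 39 higher genes became 124 with 2 UMIs of each gene, 69 after thinning, 100 without ribosomal and mitochondrial genes, 88 with a floor of 10 CPM and 5 with a floor of 50 CPM. The 133 lower became 82 when centred on the median, 231 and 64 with those floors and 233 at 10000 to 20000 UMIs, a range chosen after seeing the data. Against Ly6a-only cells, the 12 higher became 20 when weighted by depth, and the 9 lower became 14 without fibroblast-like cells. The share of double-positive cells was 4.94% in aPD-1 and 10.2% in IgG with 2 UMIs of each gene, 9.88% and 15.4% after thinning, and 21.4% and 30.9% in cells below the median in G2/M transcripts. In IgG it was 25.5% at 5000 to 30000 UMIs and 22.03% at 10000 to 20000 UMIs. Of 2581 values of named genes under alternatives, 2115 moved by less than their counting interval, 461 moved by more and 5 changed sign. In cells below that median, the IgG log2 ratios of double-positive over double-negative cells were 0.000535 for Hspd1, 0.0208 for Mpp6 and 0.335 for Rrm2. After thinning they were -0.00489 for Mvd in aPD-1 and -0.0687 for Ccl5 in IgG. The cause was not tested for these changes, other than the smaller number of genes left by a higher floor or fold. Depth limits which cells are called double-positive, since most members have few UMIs of the 2 genes.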

Other observations

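Of all genes compared between double-positive and double-negative cells, 12.6% were higher in aPD-1, 7.07% in IgG and 5.23% in both. Lower were 2.92%, 5.08% and 1.6%. Of 8 chemokines and cytokines, 7 were higher in double-positive than in double-negative cells of aPD-1, 2 in those of IgG and the same 2 in both, with median log2 ratios of 0.47 and 0.15. Of 4 checkpoint ligands and adenosine enzymes 3 were higher in aPD-1 and 2 in IgG, Cd274 and Lgals9 in both, with medians of 0.66 and 0.28. Cells switch on immediate early genes within minutes of a stimulus and also during dissociation. Of 24 such genes, 11 were higher and 2 lower in aPD-1, and 8 were higher and 1 lower in IgG. In both libraries 6 were higher and 1 lower, and the medians were 0.27 and 0.16. Dusp1, a phosphatase that turns off MAP kinases, was at 248 CPM in double-positive and 131 CPM in double-negative cells of the aPD-1 library, and at 330.04 and 260 CPM in those of the IgG library. Socs3, a feedback inhibitor of cytokine signalling, had log2 ratios of 0.84 and 0.68. Of 15 S100, annexin and galectin genes 5 were higher in both libraries, among them Lgals9, a galectin with immune functions, at 32.1 and 16.5 CPM in aPD-1 and 38.9 and 21.4 CPM in IgG.

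Of all genes, 2.92% were lower in aPD-1, 5.08% in IgG and 1.6% in both, and 12.6% were higher in aPD-1. Of 22 genes of the ATF4 and unfolded protein responses, 4 were higher and 5 lower in aPD-1, 8 were lower in IgG, and 4 were lower in both. Those included Psat1, an enzyme of serine synthesis, with log2 ratios of -0.42 and -0.54, and Mthfd2, a mitochondrial folate enzyme, with -0.40 and -0.50. Of 16 genes of the NF-kB list 7 were higher in aPD-1, where 12.6% of all genes were. In IgG 1 was higher and 1 lower, near the 7.07% and 5.08% of all genes; Tnfrsf1a, a receptor of TNF, was higher in both, at 0.37 and 0.57. Birc2, an inhibitor of apoptosis that acts at TNF receptors, was at 37.4 CPM in double-positive and 29.3 CPM in double-negative cells of the aPD-1 library, and at 45.6 and 43.4 CPM in those of the IgG library. The 3 genes counted in opposite directions in the libraries were Abhd2, Slc27a1 and Wash1, named after their values were seen. Abhd2 had log2 ratios of 0.36 in aPD-1 and -0.68 in IgG.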
